A study of Mus musculus with 12 samples.

Results

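The mitochondrial ribosomal protein genes were taken as the protein-coding genes whose mouse symbol starts with Mrpl or Mrps followed by a number. There were 78 of them among the 21899 genes of the table, 49 with an Mrpl and 29 with an Mrps symbol. Of these, 77 passed the filter on low counts and were tested among 11670 genes. Mrpl53, a large subunit protein, was listed at 0 in each of the 12 libraries, where 0 counts allow a level of up to 0.222 CPM (counts scaled to a common library size) in the shallowest library (3 counts, counting error only).

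RNA was sequenced from bone marrow-derived monocytes (BMDMs), the macrophage precursors from which osteoclasts form, of mice labelled C57BL/6 (C57BL/6J in the methods of the study). Osteoclastogenesis was induced in all 4 groups of 3 libraries by 50 ng/ml of M-CSF and 100 ng/ml of RANKL. The labels of the MR group name these cytokines alone. To them were added dBRD9, a PROTAC that degrades the chromatin remodeler subunit BRD9, in the dBRD9 group, the BET bromodomain inhibitor JQ1 in the JQ1 group, and dexamethasone (DEX, a glucocorticoid) with the BRD9 bromodomain inhibitor iBRD9 in the DEX and iBRD9 group. The labels give no dose or time for the compounds and no age of the mice. The text of the study gives doses of the compounds and an age range of the mice, which are not repeated here. It describes the iBRD9 dose sequenced with DEX as low and without a clear effect on osteoclastogenesis by itself. DEX and iBRD9 were given only together, and nothing in the labels says whether the 3 libraries of a group came from separate cultures, so p-values measure the spread between these libraries, which may be technical.

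The mitochondrial ribosome translates the few mRNAs of mitochondrial DNA, all of which encode subunits of the respiratory chain and ATP synthase. Its rRNAs are encoded in mitochondrial DNA, but every one of its proteins is encoded in the nucleus, made in the cytosol and imported, so its assembly needs many unlinked nuclear genes together with the mitochondrial genome. Part of its proteins have homologs in the bacterial ribosome and the rest are particular to mitochondria. Osteoclasts are rich in mitochondria, and their differentiation is accompanied by mitochondrial biogenesis.

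By their known place in the mammalian mitoribosome, 51 of the 78 genes encode large subunit and 26 small subunit proteins. The symbols mislead in 3 cases. Mrps18a and Mrps30 encode proteins of the large subunit, and the product of Mrps36 is now known as a component of the 2-oxoglutarate dehydrogenase complex and not of the ribosome. There were 46 members with a bacterial homolog, 29 particular to mitochondria, and 2 paralogs of the S18 family (Mrps18a and Mrps18b).

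Total counts per library were 14875951 to 18067758, and the biological coefficient of variation was 7.29%. The 10 macrophage and osteoclast precursor markers were all detected in every group, and their summed level was 17400 to 20400 CPM in the MR, dBRD9 and DEX and iBRD9 libraries and 35600 to 40900 in the JQ1 libraries. The sum mostly followed Lyz2 (15100 CPM on average in MR and 33000 with JQ1): with JQ1 4 of the 10 rose and 6 fell (median -0.33 on the log2 scale), and Mmp9, Ctsk and Acp5, genes of osteoclast function, fell by 2.56, 2.35 and 1.60. The 7 neutrophil markers summed to 125 to 202 CPM outside JQ1 and 19.9 to 32.0 CPM in JQ1 (1 of 7 at 0 there). Hepatocyte markers, which do not belong to these cells, divided the libraries: counts of albumin (Alb) were 738 to 1031 in 7 libraries (every dBRD9 and JQ1 library and the third of MR) and at most 2 in the other 5. The part of these markers in the results below was not tested. A fit with this division as an added term (100 albumin counts or more) is given beside each named gene whose call it ended, and in it dBRD9 and JQ1 are compared with MR library 3 alone.

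In MR, the genes were expressed at moderate levels that spanned a wide range. Measured in FPKM, which is scaled by gene length, the median of the 78 genes was 9.45 in MR, with 42 members under 10 and none above 50. The large subunit genes had a median of 11.6 and the small subunit genes of 7.69. At the top were Mrps21 with 43.9 ± 4.91 FPKM (SD, n = 3), Mrps15 with 35.2 ± 3.13 and Mrpl34 with 31.2 ± 1.73. Mrps21 and Mrps15 encode small subunit proteins with bacterial homologs, and Mrpl34 encodes a protein of the large subunit. The ranges mean ± SD of Mrps15 and Mrpl34 overlapped, so the order of these neighbours is not set beyond their spread. At the bottom, above Mrpl53, were Mrpl33 with 0.897 ± 0.0148 FPKM and Mrps30 with 1.73 ± 0.113. The lengths that the deposited FPKM imply are long for the low members (7326 bases for Mrpl33 and 6666 for Mrps30, against a median of 2533 over the members), so their FPKM rest on the annotated transcripts as well as on the counts. The median coefficient of variation over the MR libraries was 7.03% for the members and 6.72% for all genes tested.

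**Figure D1:**
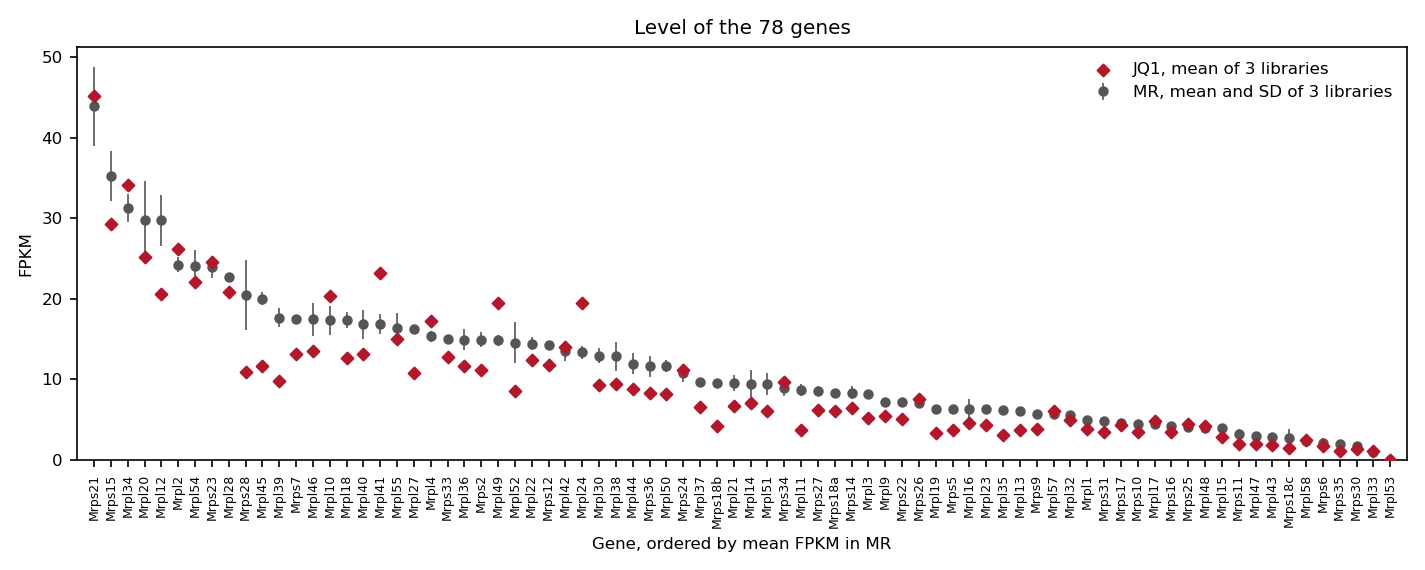
Mean FPKM of each of the 78 genes in MR (grey points, bars are the SD of 3 libraries) and in JQ1 (red diamonds, mean of 3 libraries), ordered by the level in MR. Levels run from 43.9 for Mrps21 to 0 for Mrpl53, and the median of the 78 genes is 9.45 in MR and 6.83 in JQ1.

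The order of the genes was much the same in every group. Across the 77 tested genes, which are not independent replicates, Spearman's rho of mean FPKM between MR and dBRD9 was 0.993. It was 0.989 between MR and DEX and iBRD9, and 0.943 between MR and JQ1. The median FPKM was 10.3 with dBRD9, 6.83 with JQ1 and 8.94 with DEX and iBRD9.

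The 78 genes held 0.196, 0.208 and 0.203% of the counts in MR libraries 1 to 3. The shares were 0.225, 0.218 and 0.218% in the dBRD9 libraries, all above MR. In the JQ1 libraries they were 0.150, 0.171 and 0.171%, all under MR, with JQ1 library 1 lowest. Over the TMM-scaled library size, however, JQ1 library 3 and MR library 1 both had 0.191%. The DEX and iBRD9 libraries had 0.201, 0.199 and 0.203%, within the range of MR. In bulk RNA, fewer cells of a type and less RNA per cell cannot be told apart. The large subunit genes held 2.06 to 2.18 times the counts of the small subunit genes in every library, and the groups overlapped in this ratio.

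**Figure D2:**
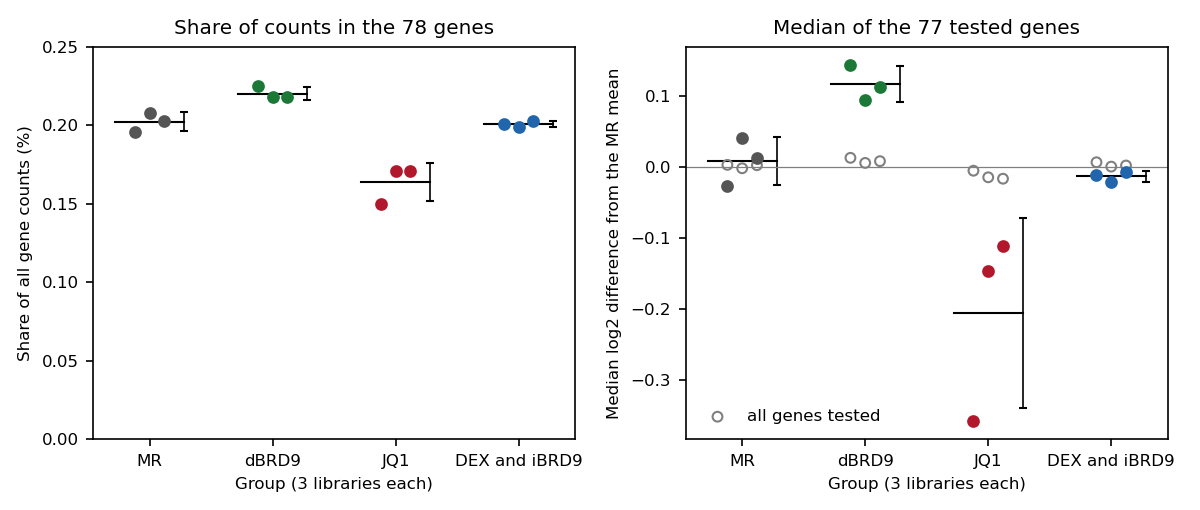
Left, share of all gene counts held by the 78 genes in each library (points), with group means (lines) and SD (bars). Right, median log2 difference of the 77 tested genes from their MR mean in each library, with the median of all 11670 genes tested as open circles. All 3 dBRD9 libraries lie above and all 3 JQ1 libraries under MR in both panels, and JQ1 library 1 is lowest.

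The first comparison asked whether the genes respond to loss of BRD9. Compared with MR, the dBRD9 libraries had slightly higher levels of most members, but no single gene passed the test. The log2 fold change was above 0 for 63 of 77 (81.8%, against 52.8% of all genes), with a median of 0.13 against 0.01 over all genes tested. Of 77 members 0 rose and 0 fell in edgeR, where 0.514% of all genes were called higher and 1.12% lower, and DESeq2 also called 0. At an unadjusted p under 0.05, 13 members were higher and 0 lower (7.73% and 8.87% of all genes), and the libraries did not overlap for 22 members that were higher and 1 that was lower (12.2% and 12.8% of all genes).

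The named members show the size of these differences. Mrpl12 encodes the L7/L12 stalk protein, which recruits translation factors and was also reported to bind the human mitochondrial RNA polymerase. It had 38.9, 47.4 and 46.2 CPM in MR and 60.5, 51.6 and 54.4 CPM with dBRD9, with no overlap, and its log2 fold change was 0.33 ± 0.11 (SE, adjusted p = 0.12). Mrpl54, which shares 94.4% of its exonic bases with the gene Matk (0.38 ± 0.13, adjusted p = 0.12), and Mrps26 (0.32 ± 0.098, adjusted p = 0.092) also had no overlap and were picked after their values were seen. Mrpl58, a peptidyl-tRNA hydrolase built into the large subunit that rescues stalled ribosomes, had 7.52, 7.29 and 7.74 CPM in MR and 10.6, 10.4 and 7.65 CPM with dBRD9. Its groups overlapped through the third dBRD9 library. In the other direction, Mrpl33 had 6.34, 6.49 and 6.32 CPM in MR and 4.64, 5.39 and 5.33 CPM with dBRD9, the 1 member whose libraries did not overlap and were lower, at a log2 fold change of -0.32. Mrps12, a protein of the decoding centre, had 14.0, 14.4 and 14.5 CPM in MR and 16.4, 16.6 and 16.4 CPM with dBRD9, with no overlap (0.20 ± 0.13, adjusted p = 0.43).

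Other short genes and other gene lists differed in the same direction. Member genes are short (median 2533 bases against 4522 for all genes tested), and with dBRD9 other genes of 243 to 2561 bases had a median log2 fold change of 0.10, against 0.15 for the 40 members of this length. After subtraction of the trend with length the median of the members was 0.05. Cytosolic ribosomal protein genes had a median of 0.15 (4 of 78 rose) and nuclear genes of the respiratory chain and ATP synthase of 0.12 (2 of 74 rose), while the mitochondrially encoded genes had 0.05 (0 of 11 called). With fewer libraries in the fit a few members were called: Mrpl12, Mrpl54 and Mrps26 in the fit of the 6 libraries compared, and these and Mrpl28 in the fit of the 9 libraries without JQ1.

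Under JQ1 a large part of the members passed the test. Compared with MR, 29 of 77 members fell and 15 rose, and 33 did not pass the test. Over all genes 31.6% fell and 30% rose, so the share of members that fell (37.7%) was somewhat above and the share that rose (19.5%) under the background. The median log2 fold change of the members was -0.21 against -0.01 over all genes. The JQ1 libraries were also those with the highest macrophage and lowest neutrophil marker sums, though 6 of the 10 macrophage markers fell, and the part of these markers in the result was not tested. Both subunits had falls and rises: 20 of 50 large subunit genes fell and 11 rose (median -0.23), and 9 of 26 small subunit genes fell and 4 rose (median -0.19).

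The count depends on the libraries and on the scaling. JQ1 library 1 had a median of -0.36 from the MR mean, against -0.15 and -0.11 in JQ1 libraries 2 and 3. Without it 17 members fell and 16 rose, with a median of -0.14. Without MR library 2, 19 fell and 9 rose, without MR library 1 33 fell and 12 rose, and with the albumin term 18 fell and 6 rose. Without MR library 3, 22 fell and 12 rose. Of the calls, 15 falls and 7 rises were kept whichever library was left out. When libraries were scaled by total counts only, which moves the median of all genes to -0.20, the median of the members was -0.40, 46 fell and 4 rose. Shares of all genes called under these settings are not given here. The counts thus show how the calls depend on the setting, not how the members compare with other genes.

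The falls were led by proteins of both subunits. Mrpl11 (chr19:5012163-5017100, GRCm39) encodes the protein at the base of the L7/L12 stalk, where elongation factors bind. It had 24.6, 29.1 and 27.1 CPM in MR and 10.8, 17.2 and 11.3 CPM with JQ1, and fell by 1.03 ± 0.13 on the log2 scale (adjusted p = 1.1e-07). Mrps18b (chr17:36221266-36227606), one of the mammalian S18 paralogs, had 18.8, 18.6 and 20.4 CPM in MR and 10.8, 8.96 and 9.08 CPM with JQ1. It fell by 1.00 ± 0.12 (adjusted p = 4.4e-08). For both genes every JQ1 library lay under every library of the other 3 groups.

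Mrpl35 and Mrpl19, large subunit proteins with bacterial homologs, fell by 0.79 ± 0.11 and 0.74 ± 0.097. Mrpl35 had 23.4, 26.2 and 24.5 CPM in MR and 13.9, 13.7 and 15.2 CPM with JQ1. Mrpl19 had 36.3, 30.9 and 33.1 CPM in MR and 18.8, 20.7 and 20.5 CPM with JQ1. In the small subunit Mrps35, a protein particular to mitochondria, had 16.2, 16.8 and 15.1 CPM in MR and 9.97, 9.20 and 9.57 CPM with JQ1. It fell by 0.74 ± 0.13, with JQ1 libraries that hardly differed from each other. Mrps28 had 19.4, 13.2 and 14.0 CPM in MR and 8.27, 9.45 and 10.6 CPM with JQ1, so that its MR libraries spread more than its JQ1 libraries. It fell by 0.72 ± 0.15. Mrpl45, which in mammals anchors the ribosome to the inner membrane near the exit of the peptide tunnel, had 49.0, 52.7 and 49.9 CPM in MR and 34.3, 31.3 and 34.4 CPM with JQ1. It fell by 0.60 ± 0.077. All of these kept their call whichever library was left out, and no JQ1 library of theirs overlapped MR.

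The rises were smaller in number, and the largest rise was smaller than the largest falls. Mrpl24 (chr3:87826798-87832192), a protein at the peptide exit tunnel, had 29.2, 30.7 and 27.4 CPM in MR and 47.9, 48.8 and 48.3 CPM with JQ1, and rose by 0.73 ± 0.10 on the log2 scale (adjusted p = 4.4e-07). Mrpl41 (chr2:24862319-24865956), a mitochondria-specific large subunit protein, had 14.9, 15.3 and 13.3 CPM in MR and 20.9, 22.6 and 24.8 CPM with JQ1, a rise of 0.65 ± 0.13. Mrpl49, also mitochondria-specific, rose by 0.58 ± 0.093 from 27.7, 27.4 and 25.5 to 36.1, 41.4 and 43.0 CPM. In these genes all JQ1 libraries exceeded all libraries of the other groups. Mrpl10, which carries the L7/L12 stalk, had 25.5, 31.2 and 29.5 CPM in MR and 38.9, 35.8 and 40.3 CPM with JQ1 and rose by 0.41 ± 0.093. Mrpl4, a protein of the tunnel wall, rose by 0.35 ± 0.083 from 40.8, 38.1 and 37.5 to 45.5, 51.9 and 51.4 CPM, a call that total-count scaling ended (0.17). The stalk thus held both directions: its carrier Mrpl10 rose, while Mrpl11 at its base and Mrpl12, the stalk itself, fell.

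**Figure D3:**
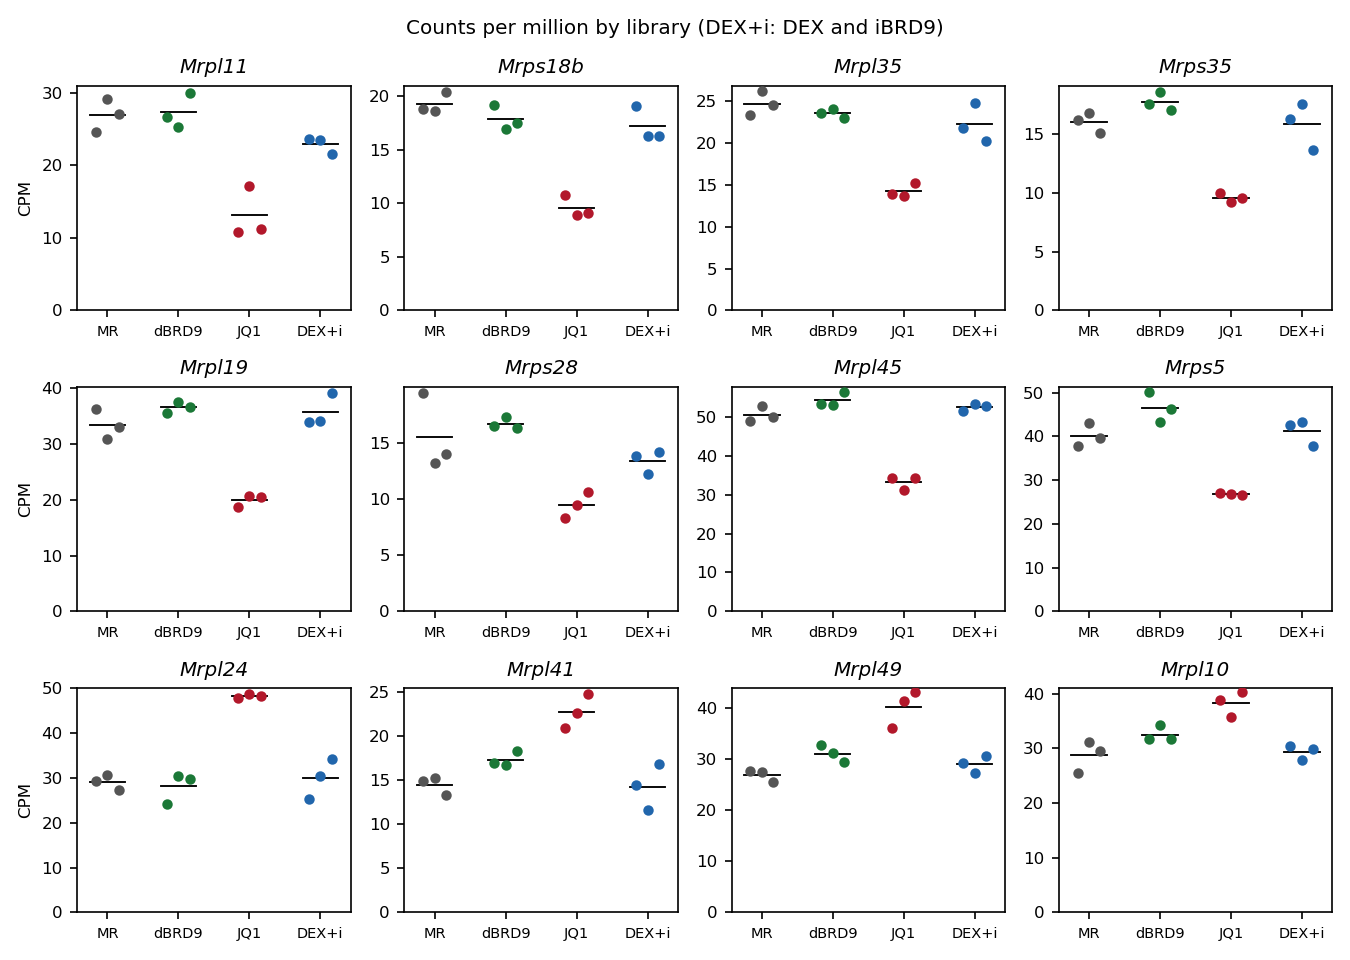
CPM of 12 members in each library (points), with group means (lines). The first 8 genes fell and the last 4 rose with JQ1. In each panel no JQ1 library overlaps an MR library.

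Calls nearer the threshold rested on single libraries. Mrpl12 fell by 0.34 ± 0.11 (adjusted p = 0.012) from 38.9, 47.4 and 46.2 to 27.4, 40.0 and 37.4 CPM, with groups that overlapped, and its call was lost without JQ1 library 1 (-0.19) or MR library 2 (-0.28). Mrps18a fell by 0.27 ± 0.11 (adjusted p = 0.034), and lost the call without JQ1 library 1 (-0.16), MR library 2 (-0.27) or MR library 3 (-0.23), and with the albumin term (-0.35). Mrpl34 rose by 0.32 ± 0.12 (adjusted p = 0.02) and lost the call without JQ1 library 3 (0.25) or MR library 2 (0.27), with the albumin term (0.27) and with total-count scaling (0.13). Mrpl33 rose by 0.38 ± 0.16 (adjusted p = 0.044), a call lost without JQ1 library 1 (0.28) and without any 1 of the MR libraries (0.38 to 0.40), and also with the albumin term (0.40), total-count scaling (0.20), no filter (0.39) and the fit of 6 libraries (0.38).

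Several members of known role did not pass the test with JQ1. Mrps18c, the S18 paralog closest to the bacterial protein, was measured at 1.76, 4.13 and 2.51 CPM in MR and 1.03, 1.61 and 2.37 CPM with JQ1, a log2 fold change of -0.75 ± 0.37 (adjusted p = 0.079) with overlapping groups. Thus of the 3 S18 paralogs, Mrps18b and Mrps18a fell and Mrps18c, the least covered of them, was not called. Mrps12 was at -0.07 ± 0.13, Mrps15 at -0.08 ± 0.085, Mrps6 at -0.09 ± 0.29, Mrps30 at -0.21 ± 0.14 and Mrpl58 at 0.27 ± 0.19 on the log2 scale. Mrps21, the member with the highest FPKM, was at 0.23 ± 0.13.

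Some members are named here by place and were picked after their values were seen. Around the peptide exit tunnel 3 of 9 members rose and 4 fell (33.3% and 44.4%, against 30.0% and 31.6% of all genes). Mrpl45, placed at the membrane contact of the tunnel exit, is not among the 9 and fell by 0.60. Beside Mrpl24 and Mrpl4, Mrpl17 rose by 0.32, while Mrpl39 fell by 0.67, both calls kept whichever library was left out. With total-count scaling 1 of the 9 rose and 5 fell, and Mrpl17 was at 0.13 and not called. Mrpl3 of the peptidyl transferase region, where peptide bonds form, fell by 0.47, and Mrps9 in the head of the small subunit by 0.40. The large subunit proteins Mrpl52 (-0.58), Mrpl13 (-0.52), Mrpl51 (-0.44) and Mrpl37 (-0.37) also fell and kept their calls whichever library was left out, though Mrpl52 was not called with the albumin term (-0.50).

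**Figure D4:**
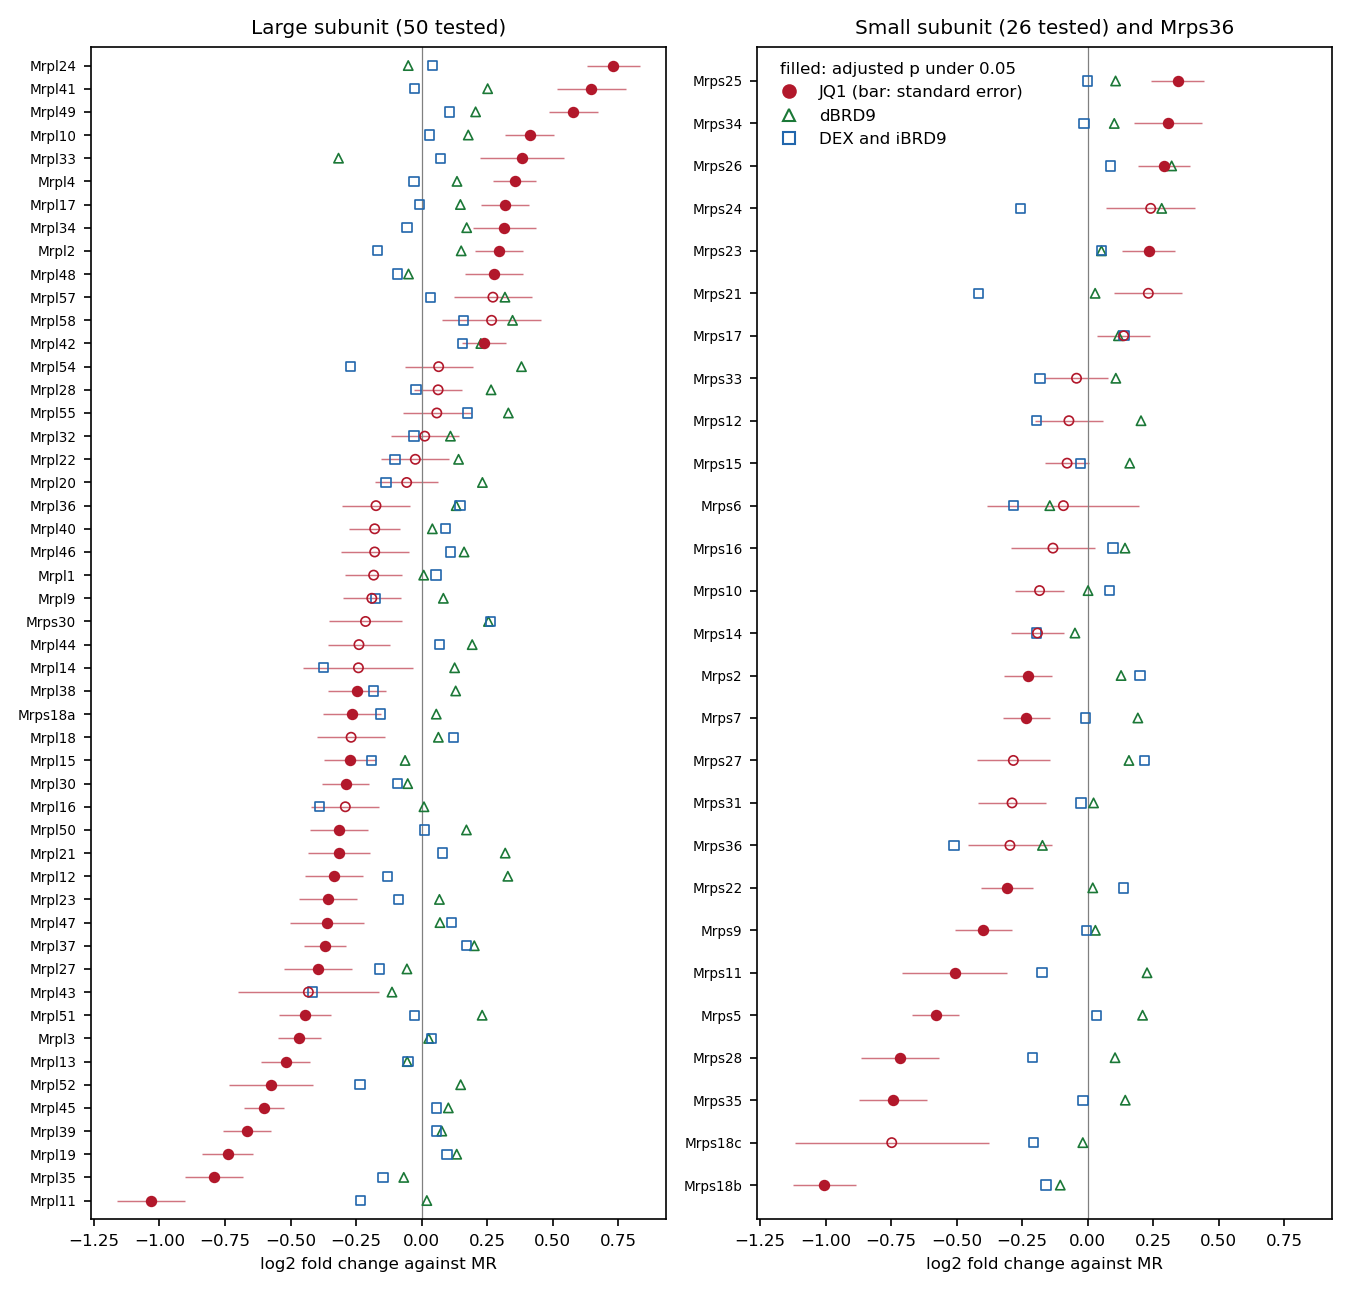
Log2 fold change against MR of the 77 tested genes, large subunit left and small subunit with Mrps36 right, ordered by the JQ1 value (red circles, bars are standard errors). Green triangles show dBRD9 and blue squares DEX and iBRD9; filled symbols passed the test. JQ1 values run from -1.03 to 0.73 and 44 are filled, while no dBRD9 or DEX and iBRD9 symbol is filled.

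Genes that share exons with others need care, because no source used here says whether reads were counted by strand. In the GENCODE annotation of GRCm39, 23 of the 77 tested members share at least 20% of their exonic bases with other genes. Shared bases were summed over the overlapping genes. A base under several genes was counted for each of them, so shares with more than 1 neighbour are upper limits. Among these 23 members 6 rose and 7 fell with JQ1 (median -0.24), and among the other 54, 9 rose and 22 fell (median -0.19). Over all genes tested 30.0% rose and 31.6% fell, and the difference between the 2 sets of members was not tested. Mrpl24 shares 41.2% of its exonic bases with Mettl25b on the other strand, which rose as well (0.54, adjusted p = 0.00015), and without strand the reads of the pair cannot be told apart. Mrps18b shares 38.4% with its neighbours, of which Ppp1r10 moved in the opposite direction (0.37, adjusted p = 4.4e-05). Mrpl19 shares 35.6% with Gcfc2, which was at 0.01 (adjusted p = 0.97), and Mrpl41 shares 42.2% with Dph7 and Pnpla7, neither of which was called. Mrpl35 shares 31.5% with Reep1 and Mrpl10 39.6% with its neighbours, among them Lrrc46. Mrpl34 shares 81.4% with Gm64263, which was not tested. Mrps18c shares 78.2% with Helq (-0.43, adjusted p = 0.021) and Abraxas1 (0.14, adjusted p = 0.44). Mrps18a shares 27.9% with Gm64818, not tested, and Rsph9 (-1.29, adjusted p = 0.015). Mrps6 shares 22.2% with Gm49711, not tested, and with Slc5a3 on the same strand (-2.24, adjusted p = 5.7e-11). The summed share of Mrps34 reaches 100%, which does not show that every base is overlapped. Mapk8ip3, 1 of the genes over it, rose by 0.57 (adjusted p = 2.1e-08). Of the members without any shared exonic base, Mrpl11, Mrps35 and Mrps5 are among those with the largest falls.

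The members lie on many chromosomes, and 24 of the 78 have a protein-coding gene head to head within 1000 bases. In 1 pair both genes are members: the start sites of Mrps11, a platform protein of the small subunit, and Mrpl46, a large subunit protein, lie 30 bases apart on chromosome 7. With JQ1, Mrps11 fell by 0.51 (adjusted p = 0.03), a call lost without MR library 2 (-0.44), MR library 3 (-0.41), JQ1 library 1 (-0.44) or JQ1 library 2 (-0.48), and Mrpl46 was at -0.18 (adjusted p = 0.23), and with dBRD9 they were at 0.23 and 0.16 with neither called. Mrpl49 starts 52 bases from Fau, a cytosolic ribosomal protein gene that also rose with JQ1 (0.22, adjusted p = 0.007), a call lost without MR library 2 (0.18) or JQ1 library 2 (0.17), with the albumin term (0.19) and with total-count scaling (0.03). Mrps12 starts 129 bases from Sars2, the mitochondrial seryl-tRNA synthetase, and both were near 0 (-0.07 and -0.01).

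The promoters were searched for 4 motifs of factors known to act at nuclear genes for mitochondrial proteins. These were the NRF1 core GCATGCGC, the ETS core CCGGAAG bound by GABP, the E-box CACGTG bound by MYC and the YY1 core AAGATGGC, on both strands, in the 300 bases from 250 before to 50 after the start site of the canonical GENCODE transcript on GRCm39. Overlapping matches were allowed. The ETS core was present in 24 of the 78 member windows (30.8%), in 16.2% of those of the 11650 tested protein-coding genes and in 10.3% of all 21484. The NRF1 core was present in 8.97% against 5.11% and 3.71%, the YY1 core in 7.69% against 3.62% and 2.46%, and the E-box in 6.41% against 10.2% and 7.88%. At least 1 of the 4 was present in 44.9% of member windows against 30.8% and 21.7%. Among the 15 members that rose with JQ1, 6 windows held the ETS core, 2 the E-box, 2 the NRF1 core and 1 the YY1 core. In the same order these were 8, 0, 2 and 2 among the 29 that fell. Among the 33 not called they were 9, 3, 3 and 3. A match is a run of letters and not a measured binding site.

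The following stretches run 5′ to 3′ on the strand of the gene from 100 bases before to 20 after the start site, with the motif matches in capitals. The first 3 belong to members that fell with JQ1 and the next 3 to members that rose. They show that the NRF1 core and the ETS core each occur in both directions, while the E-box is marked only in a member that rose. The last is the stretch around the start sites of Mrps11 and Mrpl46. Its YY1 match lies outside the window of Mrpl46, which held none of the 4 motifs. The coordinates on GRCm39 are chr17:36227471-36227590 (- strand) for Mrps18b, chr3:8988959-8989078 (- strand) for Mrps28, chr6:146944126-146944245 (+ strand) for Mrps35, chr5:31771183-31771302 (+ strand) for Mrpl33, chr11:96932272-96932391 (+ strand) for Mrpl10, chr2:24865887-24866006 (- strand) for Mrpl41 and chr7:78432767-78432886 (+ strand) for Mrps11.
Mrps18b: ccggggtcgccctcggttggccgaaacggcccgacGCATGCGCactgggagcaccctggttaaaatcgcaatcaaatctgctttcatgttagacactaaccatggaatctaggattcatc
Mrps28: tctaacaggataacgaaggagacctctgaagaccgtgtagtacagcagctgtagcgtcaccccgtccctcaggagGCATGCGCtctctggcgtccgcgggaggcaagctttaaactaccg
Mrps35: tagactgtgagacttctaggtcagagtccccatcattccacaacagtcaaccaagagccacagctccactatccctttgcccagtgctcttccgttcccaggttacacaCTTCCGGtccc
Mrpl33: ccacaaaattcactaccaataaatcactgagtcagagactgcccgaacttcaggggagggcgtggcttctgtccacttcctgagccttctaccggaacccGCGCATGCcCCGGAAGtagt
Mrpl10: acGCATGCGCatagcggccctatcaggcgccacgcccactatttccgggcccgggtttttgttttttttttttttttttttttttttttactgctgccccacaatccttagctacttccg
Mrpl41: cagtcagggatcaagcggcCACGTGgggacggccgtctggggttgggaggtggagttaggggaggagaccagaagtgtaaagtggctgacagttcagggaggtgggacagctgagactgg
Mrps11: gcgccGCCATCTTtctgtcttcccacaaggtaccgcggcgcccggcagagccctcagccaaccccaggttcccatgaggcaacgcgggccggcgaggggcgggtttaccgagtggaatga
The NRF1 core is marked in Mrps18b, Mrps28, Mrpl33 and Mrpl10, of which the first 2 fell and the other 2 rose. The ETS core is marked in Mrps35 and Mrpl33, the E-box in Mrpl41 (a second E-box lies farther from its start site) and the YY1 core in Mrps11. The windows of Mrpl11 and Mrpl24, the members with the largest fall and rise, held none of the 4.

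The other genes of mitochondrial translation did not all move as the ribosomal proteins did. With JQ1, 10 of the 11 mitochondrially encoded genes tested rose and 0 fell, with a median of 0.96. Among them mt-Atp6, a subunit of ATP synthase, rose by 1.06 ± 0.18, and mt-Cytb, the cytochrome b of complex III, had 2100 ± 79.1 CPM in MR (SD, n = 3) and 4130 ± 410 CPM with JQ1. Their share of all counts was 1.86 to 1.96% in MR and 2.72 to 3.20% with JQ1. The rRNAs of the mitochondrial ribosome are not analysed here.

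Of the 5 mitoribosome proteins with other symbols, 4 were tested. Dap3, a GTP-binding small subunit protein, rose with JQ1 by 0.71 ± 0.089 (adjusted p = 6.3e-08), and Chchd1 fell by 0.35 ± 0.12 (adjusted p = 0.012), a call lost without MR library 2 (-0.30), without JQ1 library 2 (-0.31) and with the albumin term (-0.17). Ptcd3 and Aurkaip1 were at 0.05 and 0.17 and were not called, though Aurkaip1 was without JQ1 library 1 (0.28). Of 27 assembly and rRNA modification factors 7 rose and 6 fell (25.9% and 22.2%, against 30.0% and 31.6% of all genes). Ngrn and Mpv17l2 rose by 0.64 (0.51 and not called with the albumin term) and 0.57. Fastkd2 and Gtpbp10, which act on assembly of the large subunit, fell by 0.97 and 0.78. Of 14 translation factors 2 rose and 5 fell (14.3% and 35.7%), led by the release factor gene Mtrf1, which fell by 1.13. Of 20 genes for aminoacyl-tRNA synthesis 5 rose and 6 fell: Nars2 and Cars2 rose by 0.89 and 0.81, and Qrsl1 and Fars2 fell by 0.92 and 0.77. Of 23 genes for transcription and RNA processing 3 rose and 9 fell (13.0% and 39.1%). Among those that fell were Prorp, the nuclease of mitochondrial RNase P, and Pnpt1, an RNA-degrading exonuclease, by 0.99 and 0.95.

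Regulators of mitochondrial biogenesis fell more than they rose, 5 and 2 of 9 tested (median -0.57). These were 55.6% and 22.2%, where 31.6% of all genes fell and 30.0% rose. The coactivator genes Pprc1 and Ppargc1b fell by 0.60 ± 0.068 and 0.77 ± 0.25 (not called without JQ1 library 3, -0.47, or with the albumin term, -0.65), the GABP subunit genes Gabpa and Gabpb2 by 0.57 ± 0.095 and 0.57 ± 0.085, and Myc by 0.73 ± 0.076. Yy1 rose by 0.22 ± 0.058 and Esrra, an orphan nuclear receptor, by 0.32 ± 0.089, but with total-count scaling they were at 0.03 and 0.13 and neither was called, and with the albumin term Esrra was at 0.18 and not called. Nrf1 was at 0.07 ± 0.09 and Gabpb1 at 0.22 ± 0.11, and neither was called, though Gabpb1 was without JQ1 library 1 (0.29) or MR library 1 (0.295). Of 78 cytosolic ribosomal protein genes 31 rose and 2 fell (39.7% and 2.56%, median 0.11). Of 74 nuclear genes of the respiratory chain and ATP synthase 10 rose and 10 fell (13.5% each, median 0.03). These medians, and that of the assembly factors (0.12), turned to -0.07, -0.16 and -0.07 with total-count scaling, where all genes had -0.20.

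**Figure D5:**
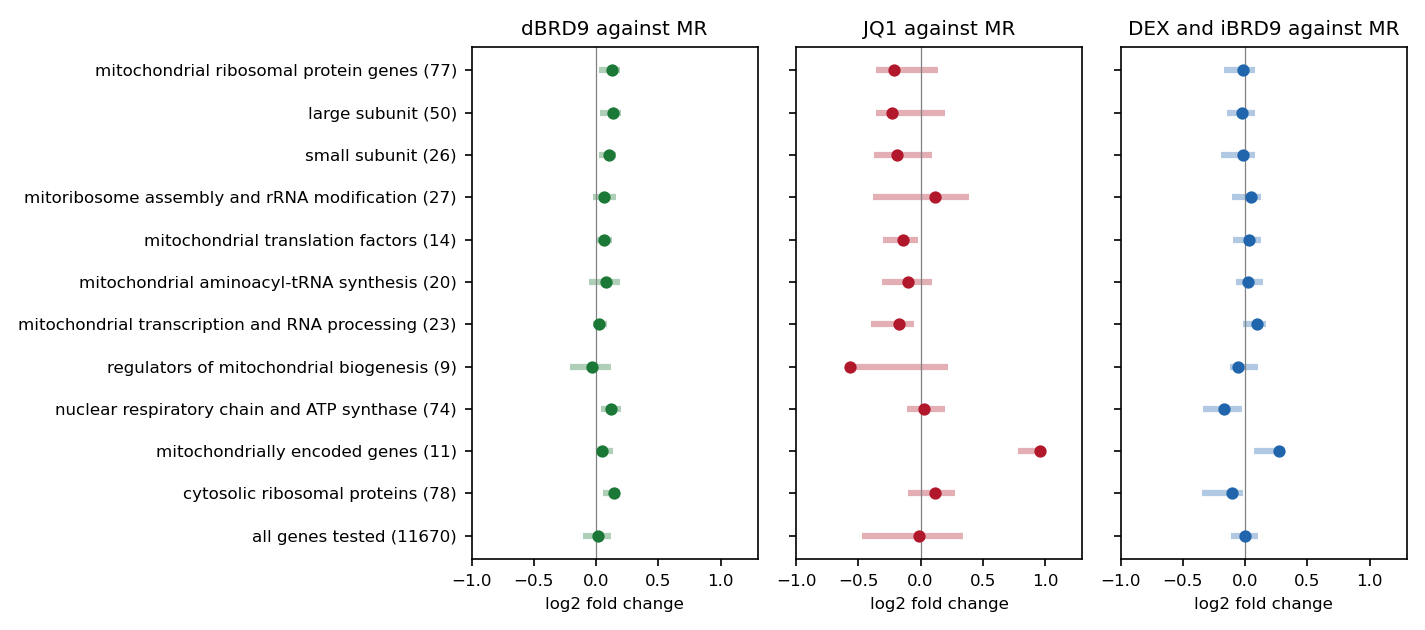
Median log2 fold change (points) and middle 50% of the values (bars) of the tested members of each list in 3 comparisons with MR, with the number tested in parentheses. With JQ1 the mitochondrial ribosomal protein genes have a median of -0.21 and the mitochondrially encoded genes of 0.96. The 3 comparisons share the MR libraries.

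The next comparison set DEX and iBRD9 against MR. The members as a group stayed close to MR, with a median log2 fold change of -0.02 against 0.002 over all genes and 32 of 77 above 0. Of 77 members 0 were called in either direction by edgeR or by DESeq2 (0.591% of all genes higher and 1.36% lower in edgeR). At an unadjusted p under 0.05, 2 were higher and 4 lower (7.02% and 8.6% of all genes). The libraries did not overlap for 4 that were higher and 7 that were lower (12.2% and 12.8% of all genes). All DEX and iBRD9 libraries and MR libraries 1 and 2 lie on the side without albumin counts, and with the albumin term 0 members were called.

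Among the largest differences were those of a gene outside the ribosome and of the member with the highest FPKM in MR. Mrps36, the 2-oxoglutarate dehydrogenase component, had 16.1, 14.2 and 12.8 CPM in MR and 10.1, 10.3 and 9.90 CPM with DEX and iBRD9, with no overlap and a log2 fold change of -0.51 ± 0.16 (adjusted p = 0.085). Mrps21 had 27.7, 34.5 and 32.2 CPM in MR and 25.8, 21.7 and 23.2 CPM with DEX and iBRD9, also with no overlap, at -0.42 ± 0.13 (adjusted p = 0.11). Both were called in the fits of 6 and of 9 libraries and with no filter, and Mrpl16 in the fit of 6. With dBRD9, Mrps36 was at -0.17 and Mrps21 at 0.03. Of the other lists, 3 cytosolic ribosomal protein genes fell of 78 (median -0.10), 1 respiratory chain gene fell of 74 (median -0.17), and mt-Cytb was the 1 mitochondrially encoded gene of 11 that rose (0.29 ± 0.064, adjusted p = 0.015, list median 0.27). This call was lost without MR library 1 (0.27) or 3 (0.28), without DEX and iBRD9 library 2 (0.25) or 3 (0.27), and with the albumin term (0.28).

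Setting JQ1 against dBRD9 asked how BET inhibition differs from loss of BRD9, with the same JQ1 libraries as above. Compared with dBRD9, 39 of 77 members fell with JQ1 and 8 rose, where 32.8% of all genes fell and 30.4% rose. The members had a median of -0.30 against -0.02 over all genes, and -0.49 against -0.21 with total-count scaling. Large subunit genes fell in 27 and rose in 7 of 50, and small subunit genes fell in 12 and rose in 1 of 26. Of the calls, 27 falls and 4 rises were kept whichever library was left out, and without JQ1 library 3 there were 4 rises (42 falls), and without dBRD9 library 3 there were 5 (32 falls).

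The genes with the largest falls were again Mrpl11 (1.05 ± 0.13) and Mrps18b (0.90 ± 0.12). Mrps5, at the mRNA entry of the small subunit, had 50.1, 43.2 and 46.2 CPM with dBRD9 and 27.0, 26.9 and 26.7 CPM with JQ1, a fall of 0.79 ± 0.088 (adjusted p = 7e-09) with no overlap. It was at 37.9, 43.0 and 39.6 CPM in MR, between the 2 treatments. Mrpl12 fell by 0.66 ± 0.11 (adjusted p = 1.2e-05), from 60.5, 51.6 and 54.4 to 27.4, 40.0 and 37.4 CPM. Mrps30, a large subunit protein despite its symbol, fell by 0.47 ± 0.14 (adjusted p = 0.0047). Mrpl33 was the member furthest apart in the other direction besides Mrpl24: it had 4.64, 5.39 and 5.33 CPM with dBRD9 and 9.53, 7.91 and 7.61 CPM with JQ1, and rose by 0.70 ± 0.17 (adjusted p = 0.00062). Mrpl24 rose by 0.78 ± 0.10. Mrpl41 and Mrpl49 rose by 0.40 and 0.37, and with total-count scaling their differences were 0.21 and 0.18 and not called. Mrpl10 rose by 0.24 and Mrpl4 by 0.22. The call of Mrpl10 was lost without JQ1 library 1 (0.23) or 3 (0.20) or dBRD9 library 1 (0.22) or 3 (0.23), and that of Mrpl4 without JQ1 library 2 (0.19) or 3 (0.20) or dBRD9 library 3 (0.21). With total-count scaling they were at 0.04 and 0.03 and neither was called. Mrps6 and Mrps36 were at 0.05 and -0.12 and were not called.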

How the data were processed

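RNA-seq libraries of BMDMs were made by the authors with a NEBNext Ultra II kit, and the submitters' processing notes name cutadapt, HISAT2, GRCm39 and HTSeq. The deposited table holds raw counts per gene and library, and FPKM that the authors computed from these counts. The strand setting and the selection of RNA are not given in the sources used here. Counts were analysed in R 4.3.3 with edgeR 4.0.16 and limma 3.58.1: filterByExpr (minimum count 10, minimum total 15), TMM scaling, and the robust quasi-likelihood test in 1 fit of 12 libraries (8 residual degrees of freedom, prior count 0.125), with p-values adjusted by Benjamini and Hochberg over 11670 genes and called under 0.05. CPM are TMM-scaled. The FPKM were used for levels between genes, with no test. The fit was tested on simulated data.

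Alternatives were DESeq2 1.42.0 (Wald test, and its size factors in edgeR), total-count scaling, no filter, a filter at 1 CPM in 3 libraries with 20 counts on average, the 6 libraries compared, the 9 libraries without JQ1, an albumin term, subtraction of the trend with length, the threshold of the study (unadjusted p under 0.05 and a fold of 1.2), and leaving out each library. Of the gene identifiers, 21700 matched GENCODE on GRCm39 and 199 did not. Subunits and sites were assigned from general knowledge. The members, lists, motifs and alternatives were chosen with earlier results of these data known. Named members were the 6 largest called changes per direction with no overlap in the 2 comparisons of JQ1, every called member with dBRD9 or with DEX and iBRD9 (0), 12 fixed members and the 3 highest and 3 lowest by FPKM; Mrps26, Mrpl54, Mrpl28, Mrpl16, Mrps34, Mrps11, Mrpl46 and the members listed by place were named after their values were seen. Figures were drawn with Python 3.11.15, pandas 2.3.3 and matplotlib 3.10.9. Muscle, lymphoid, erythroid and stromal markers each summed to at most 23.9 CPM in every library. Only the RNA-seq table was used.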

Additional observations from a re-analysis of the deposited data

How the results depend on the processing

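In the comparison of dBRD9 with MR, 3 members were called in the fit of 6 libraries, 4 in the fit of 9, 3 with no filter and 7 by unadjusted p and a fold of 1.2, all higher, against 0 (2.41, 2.98, 1.09 and 3.26% of all genes were called higher under these settings). The median was 0.052 after subtraction of the length trend, and otherwise 0.098 to 0.132 without each library. With DEX and iBRD9, 3, 2, 2 and 4 members were called under the same settings, all lower, against 0 (5.75, 3.56, 2.63 and 4.46% of all genes), and without each library 0, with medians of -0.032 to -0.002. With JQ1 against MR, 24 were called with the albumin term, and without each library 28 to 45 (28 without MR library 2), with medians of -0.26 to -0.14. The median was -0.401 with total counts only. Against dBRD9, 37 to 50 were called without each library, with medians of -0.334 to -0.218, and -0.490 with total counts only. For the comparisons of JQ1, the shares of all genes called under these settings are not given here. Without the mitochondrially encoded and the 10 most abundant genes the members held 0.225% of counts in MR, 0.246% with dBRD9, 0.193% with JQ1 and 0.224% with DEX and iBRD9. Over the TMM effective library size they held 0.197% in MR, 0.214% with dBRD9, 0.181% with JQ1 and 0.194% with DEX and iBRD9. No call changed direction under the settings run, while the uncalled median of DEX and iBRD9 was 0.003 after subtraction of the length trend. Of 35 calls of named genes, 27 held without each library and 8 were lost without at least 1. Of the 35, total-count scaling ended 7, the albumin term 3, no filter 1 and the fit of 6 libraries 1. Of 33 called results of genes of other lists 20 held under every setting and 13 were lost under at least 1. The causes were not tested. No paired analysis was possible because replicate numbers only follow the order of deposition.

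With 3 libraries a group, thinly covered members (Mrps18c and Mrps6) had standard errors of 0.29 to 0.37 on the log2 scale, so moderate differences were not detectable at this depth. Overlapping genes and transcript lengths limit what single values mean. All dBRD9 and all DEX and iBRD9 libraries lie on opposite sides of the albumin division and MR lies on both. With the albumin term their medians against MR were 0.12 and -0.02, with 0 members called.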
